A study of Homo sapiens with 8 samples.

Results

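Transcript levels were compared between the last sample taken before recombinant WNT3A was added and the sample taken 8 h later, in human embryonic stem cells on their way to neural tissue. The comparison is between 4 of the 8 libraries of the study, 2 at 34 h and 2 at 42 h, chosen by their labelled time. The spread behind its standard errors and p-values was estimated over all 8 libraries, except where a fit of the 4 alone is named. All cells were wild-type ESI017, a human embryonic stem cell line. They were plated in mTeSR1, a maintenance medium. Neural differentiation then ran in N2B27, a defined medium without serum, to which 10 µM SB and 100 nM LDN had been added. Libraries were enriched for poly(A) RNA, per the labels. SB and LDN are the labels' names for inhibitors in common use against the activin/NODAL and BMP receptors. Both groups had SB and LDN throughout. WNT3A at 300 ng/mL was added at 34 h, so the 34 h libraries stand at 0 h of WNT3A and the 42 h libraries at 8 h. No culture without WNT3A was analysed at 42 h, so 8 h of growth and 8 h of WNT3A cannot be told apart in any value that follows.

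WNT proteins bind Frizzled receptors and LRP co-receptors at the cell surface, and in the canonical pathway this stops the breakdown of beta-catenin. Beta-catenin then enters the nucleus and joins TCF and LEF factors on DNA, where genes that damp the pathway are among those switched on. In the early nervous system WNT signalling gives cells posterior identity, at the cost of forebrain fate.

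Values are TPM, the share of all transcripts in a library after correction for gene length, summed by gene symbol. Differences are on the log2(TPM + 1) scale with their standard error (SE), where changes of genes near 0 come out smaller than they are. The read depth of the libraries is unknown, since TPM does not keep it. Replicate 1 and replicate 2 carry the batch labels 1 and 2, and the series' design text calls the second an independent biological replicate. Within a time point the 2 libraries had Spearman correlations of 0.983 at 34 h and 0.981 at 42 h over the tested genes, against 0.969 to 0.975 between the time points. The median gene had a replicate SD of 0.123 on the log2 scale at either time. Mitochondrially encoded genes took 10.2% and 11.2% of the TPM at 34 h and 9.72% and 11.2% at 42 h.

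The cells still carried the transcripts of the stem cell state at both times. POU5F1, the central pluripotency factor, stood at 1170 and 1150 TPM before WNT3A and 1090 and 989 TPM after. SOX2, shared by stem cells and neural progenitors, stood at 224 and 211 TPM before and 186 and 168 TPM after. Of 16 pluripotency genes, 14 did not pass the test, and PRDM14 and TERF1 fell. At an unadjusted p under 0.05 by limma, 6 of them were lower and 1 higher, where 2069 of all 14908 tested genes (13.9%) were past it in either direction. The call of TERF1 was lost without any 1 of the 4 libraries (limma adjusted p from 0.0154 to 0.213 over the alternatives, and 0.062 with the replicate block). Pan-neural progenitor genes were present at both times, with a summed TPM of 777 and 752 at 34 h and 853 and 861 at 42 h. Of the 16 tested, 1 rose and 15 did not pass, and 5 were higher and 3 lower at an unadjusted p under 0.05. PAX6, an early neural marker, was under 0.5 TPM in all 4 libraries.

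The first 8 h of WNT3A went with a change in a small part of the transcriptome, and more genes rose than fell. Of 14908 genes tested, 384 (2.58%) passed limma's test at a Benjamini-Hochberg adjusted p under 0.05, of which 266 (1.78%) rose and 118 (0.792%) fell. These shares are the background for every count of called list members given in the text. All 384 moved in the same direction within replicate number 1 and within replicate number 2. Calls need a change that is large against the spread of these same libraries, so this agreement follows largely from the choice. Of the raised genes 183 rose by at least 1 on the log2 scale, 50 by at least 2 and 15 by at least 3. Of the lowered genes 64 fell by at least 1 and 8 by at least 2. Of the raised genes 45 were under 1 TPM in both 34 h libraries and so passed the filter on low values only through libraries taken after WNT3A, and 10 lowered genes were under 1 TPM in both 42 h libraries. Among the 45 were SP5, RNF43, TNFRSF19, FZD1, FZD10, DKK4, CDX1, CDX2, EVX1, NODAL, INHBB, FGF18, MSX1, LHX1, LHX2, SEMA3C and STMN2, and the counts raised in their lists hold members that had to be higher at 42 h or later to be tested. Without 1 of the 4 libraries at a time the test called fewer: 189 genes without 34 h replicate 1, 161 without 34 h replicate 2, 175 without 42 h replicate 1 and 164 without 42 h replicate 2, with 134 to 159 raised and 27 to 35 lowered. A fit of the 4 libraries alone called 171 (120 raised and 51 lowered).

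The 266 raised genes together held 6458 and 6061 TPM before WNT3A and 14079 and 13393 TPM after, which is 0.646% and 0.606% of a library before and 1.41% and 1.34% after. The 118 lowered genes went from 8921 and 8703 TPM to 5012 and 4940 TPM. These sums describe genes chosen by their change. By gene type, 258 of the raised genes (97.0%) and 110 of the lowered genes (93.2%) were protein coding, against 92.2% of all tested genes. The smallest change that was called depended on the level: 0.89 on the log2 scale for genes under 5 TPM on average and 0.36 for genes over 100 TPM. Of 273 genes under 5 TPM with a log2 difference of at least 1, 197 were not called.

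**Figure D1:**
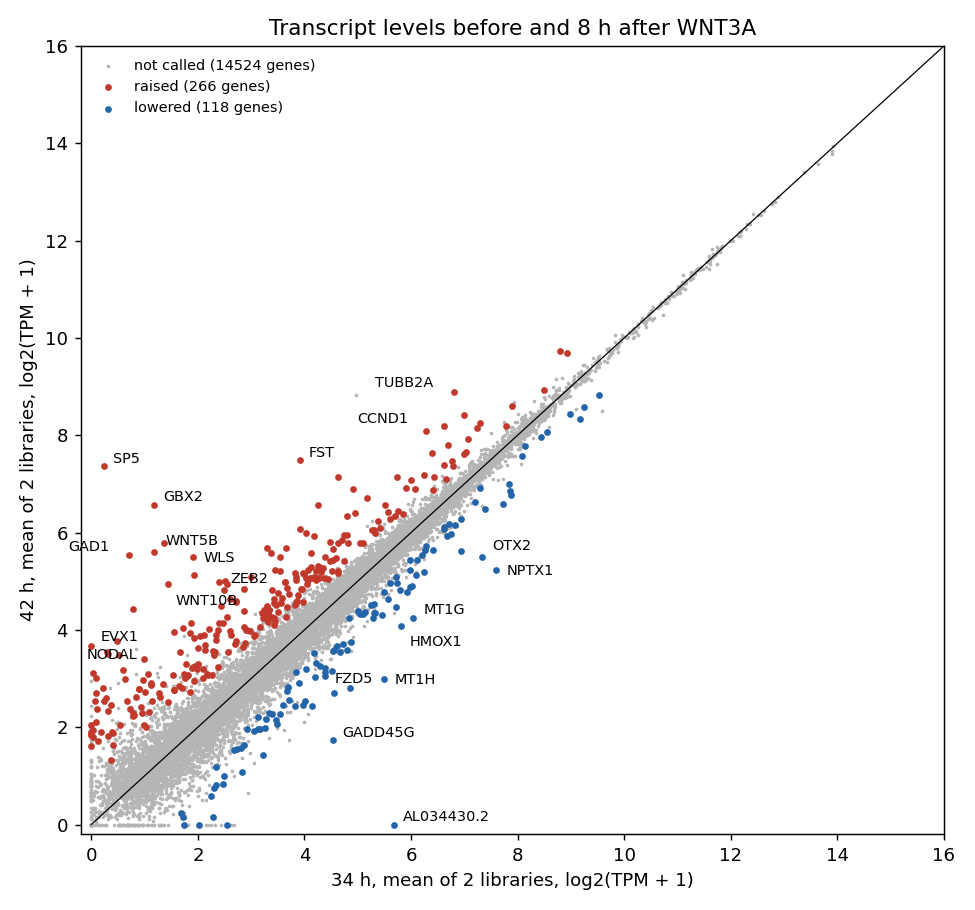
Mean log2(TPM + 1) of the 2 libraries at 42 h (vertical) against the mean of the 2 libraries at 34 h (horizontal) for each of the 14908 tested genes, with the 266 raised genes in red, the 118 lowered genes in blue and equal levels on the black line. SP5 and GBX2 lie farthest above the line, and GADD45G, MT1H, NPTX1 and the clone-named AL034430.2 lie below it.

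Genes that make, export and receive WNT proteins changed in both directions. WNT5B, a ligand best known for signalling without beta-catenin, stood at 1.69 and 0.918 TPM at 34 h and at 52.9 and 42.1 TPM at 42 h. WNT10B, a canonical ligand, went from 1.74 and 1.68 TPM to 30.1 and 29.7 TPM. WLS, the membrane protein that carries WNT proteins to the cell surface, went from 3.41 and 2.17 TPM to 50.8 and 38.6 TPM. The log2 changes were 4.41 ± 0.21 for WNT5B, 3.51 ± 0.19 for WNT10B and 3.60 ± 0.21 for WLS (SE, n = 2 against 2; limma adjusted p = 6.28e-05, 9.16e-05 and 0.000168). The 34 h and 42 h libraries did not overlap for any of the 3 genes, which is a description, since called genes are chosen by their change. WNT4 moved the other way, from 17.1 and 20.4 TPM to 7.74 and 9.38 TPM. In all, 2 of 10 tested WNT ligands rose, 1 fell and 7 did not pass. WNT11 was at 3.51 and 0.98 TPM at 42 h and did not pass. The transcript of WNT3A itself, the protein added to the medium, was at most 0.16 TPM at 42 h.

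Receptors moved in both directions. Among 19 tested receptors and co-receptors, FZD1, FZD10, ROR2 and PTK7 rose, FZD5, FZD8 and LGR4 fell and 12 did not pass. FZD10 went from 0.265 and 0.104 TPM to 5.85 and 3.98 TPM (log2 change 2.31 ± 0.22, limma adjusted p = 0.00136). ROR2, a receptor kinase for WNT5-type ligands, went from 5.33 and 4.09 TPM to 32.7 and 29.2 TPM (2.49 ± 0.20, limma adjusted p = 0.000489). PTK7, a co-receptor of planar cell polarity, was already at 120 and 96.4 TPM and reached 185 and 170 TPM. FZD5, a Frizzled of the anterior neural plate, fell from 20.5 and 19.4 TPM to 8.28 and 8.27 TPM (log2 change -1.18 ± 0.14, limma adjusted p = 0.00352). FZD8, its closest relative, was at 12.3 and 9.94 TPM and then at 4.72 and 4.32 TPM. LGR4, a receptor for R-spondins, went from 52.5 and 50.2 TPM to 31.1 and 35.4 TPM. The summed TPM of the receptor list was 860 and 775 at 34 h and 960 and 954 at 42 h.

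Secreted modulators also moved both ways. DKK4, a WNT antagonist that binds LRP co-receptors, was listed at 0 in one 34 h library and at 0.101 TPM in the other, and reached 5.19 and 4.49 TPM in the 42 h libraries (log2 change 2.47 ± 0.25, limma adjusted p = 0.00149). WIF1, which binds WNT proteins directly, went from 2.49 and 3.26 TPM to 9.07 and 8.21 TPM. FRZB, a secreted Frizzled-related protein, went from 3.35 and 4.37 TPM to 7.18 and 7.58 TPM. The other 2 secreted Frizzled-related proteins that were called fell from much higher levels. SFRP1 went from 402 and 350 TPM to 267 and 266 TPM, and SFRP2 from 276 and 288 TPM to 219 and 219 TPM. In all, 3 of 13 tested modulators rose, 2 fell and 8 did not pass. NOTUM, an enzyme that inactivates WNT proteins, was listed at 0 in both 34 h libraries and at 1.99 and 0.994 TPM at 42 h, and did not pass, though it was called with a pseudocount of 0.1 and without a variance trend (limma adjusted p from 0.0259 to 0.309 over the alternatives).

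Several of these calls did not hold in all settings. The calls of WNT4, FZD8, LGR4, FRZB, SFRP1 and SFRP2 were lost without any 1 of the 4 libraries, and those of PTK7 and WIF1 without either 42 h library and without 1 of the 34 h libraries (replicate 2 for PTK7, replicate 1 for WIF1). Over the alternatives limma's adjusted p ran from 0.0103 to 0.221 for WNT4, 0.011 to 0.114 for FZD8, 0.0362 to 0.229 for LGR4, 0.0404 to 0.233 for FRZB, 0.03 to 0.239 for SFRP1, 0.0453 to 0.29 for SFRP2, 0.0164 to 0.168 for PTK7 and 0.00893 to 0.0925 for WIF1. With the replicate number as a block, limma's adjusted p was 0.0588 for LGR4 and 0.0604 for SFRP2. FZD1, at 0.729 and 0.775 TPM and then 3.76 and 3.70 TPM, lost its call in the fit of the 4 libraries alone (adjusted p from 0.00142 to 0.052 over the alternatives). WNT5B, WNT10B, WLS, FZD10, ROR2, FZD5 and DKK4 were called in every alternative except the one that required a log2 change above 1, which kept the calls of WNT5B, WNT10B, WLS and ROR2.

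**Figure D2:**
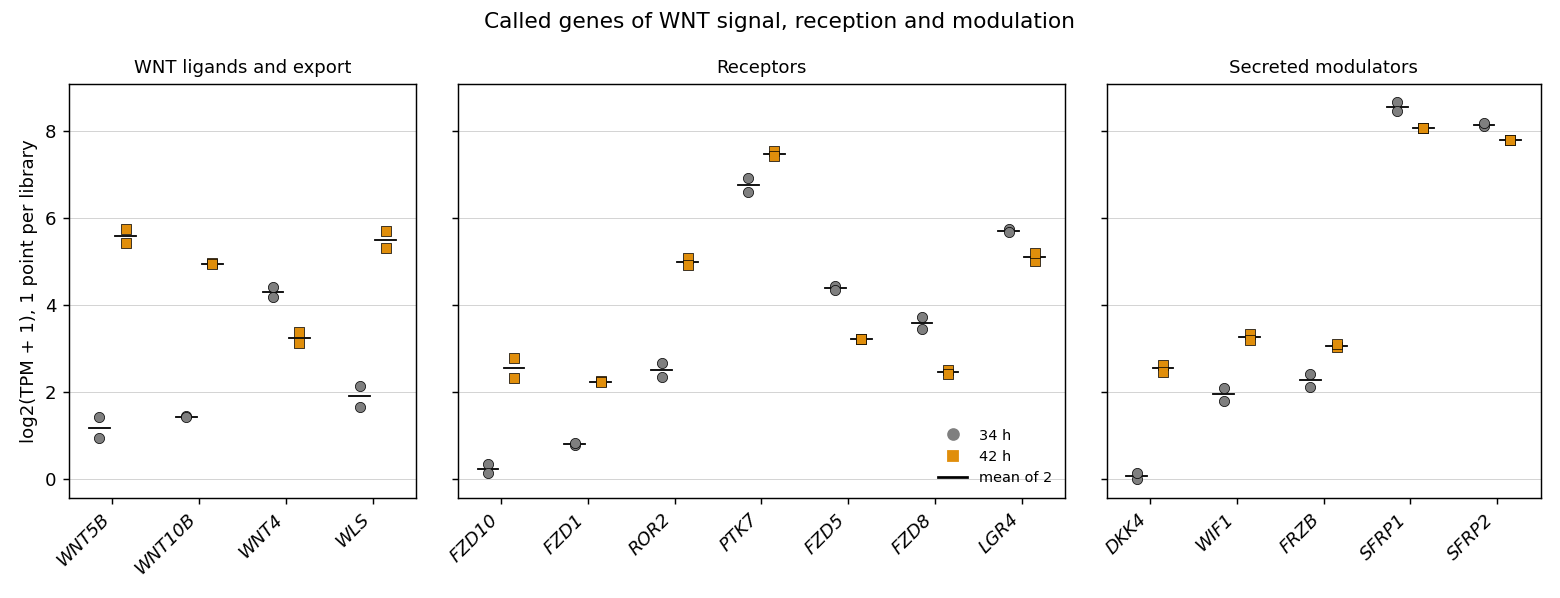
Log2(TPM + 1) of the called WNT ligands with WLS (left), receptors (centre) and secreted modulators (right), 1 point per library, grey circles for 34 h and orange squares for 42 h, with a black bar at the mean of 2. WNT5B, WNT10B, WLS, FZD10, ROR2 and DKK4 start low and rise, and FZD5, FZD8, SFRP1 and SFRP2 start higher and fall.

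Most of the tested feedback and target genes of canonical WNT signalling rose. Of 14 on the list 13 were tested, of which SP5, RNF43 and TNFRSF19 passed the filter on low values only through libraries taken after WNT3A. Of the 13, 10 rose, none fell by limma at an adjusted p under 0.05 (0 also at an unadjusted p under 0.05), and ZNRF3, NKD2 and BAMBI did not pass. RNF43, a ubiquitin ligase that removes Frizzled receptors, went from 0.402 and 0.382 TPM to 11.8 and 13.6 TPM (log2 change 3.29 ± 0.17, limma adjusted p = 9.16e-05). ZNRF3, which has the same function, was at 8.26 and 6.13 TPM and then at 12 and 10.7 TPM. NKD1, an inhibitor that binds Dishevelled, went from 0.859 and 2.59 TPM to 58.8 and 49.3 TPM. Its relative NKD2 was at 3.05 and 4.69 TPM and then at 3.34 and 4.30 TPM. In both pairs the member that was lower at 34 h was the one called. DACT1, another partner of Dishevelled, rose from 2.41 and 3.21 TPM to 35.9 and 31.9 TPM, and CCND1, the G1 cyclin D1, from 88.8 and 65.5 TPM to 301 and 246 TPM. A list of 16 core genes held TCF7L1, TCF7L2, beta-catenin, its destruction complex, Dishevelled and nuclear cofactors, but not LEF1 and TCF7, which are counted with the feedback and target genes. In it TLE3 rose, TCF7L2 fell and 14 did not pass. LEF1 rose from 7.77 and 9.94 TPM to 47.8 and 53.4 TPM and TCF7 from 5.01 and 4.26 TPM to 24.2 and 30.9 TPM. TCF7L2 went from 78.6 and 73.9 TPM to 48.4 and 49.5 TPM, and TCF7L1, with 96.8 and 81.1 TPM before and 62.9 and 55.4 TPM after, did not pass. The calls of TLE3 and TCF7L2 were lost without any 1 of the 4 libraries (limma adjusted p from 0.00427 to 0.117 and from 0.0164 to 0.15 over the alternatives).

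TCF and LEF factors bind short sequences, and many described sites hold the letters CTTTGA. The 250 bases before the gene start were searched for CTTTGA on both strands, which reads as TCAAAG on the printed strand where the match is on the other one. The promoters below are from RefSeq (GRCh38.p14) and are printed 5′ to 3′ on the strand of the gene, with each match in capitals. The 4 were chosen among raised genes whose promoter holds a match: SP5 for the largest rise, CDX2 and NKX6-1 as factors near 0 at 34 h, and FGF18 as a secreted signal. The starts are those of RefSeq. For 78.6% of 10704 promoters the bases after the RefSeq start lay in a GENCODE release 29 transcript of the same gene. The outermost GENCODE start of SP5 lay 14 bases and that of FGF18 9 bases from the RefSeq start, but that of CDX2 lay 1824 bases upstream of it and that of NKX6-1 842 bases downstream, so the windows of these 2 genes depend on the annotation.
SP5, chr2:170715087-170715336, plus strand: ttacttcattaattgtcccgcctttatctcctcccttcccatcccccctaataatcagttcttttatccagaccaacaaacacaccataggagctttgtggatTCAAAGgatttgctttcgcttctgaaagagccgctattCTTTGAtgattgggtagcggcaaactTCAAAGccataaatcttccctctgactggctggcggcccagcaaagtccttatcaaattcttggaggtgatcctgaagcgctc
CDX2, chr13:27969316-27969565, minus strand: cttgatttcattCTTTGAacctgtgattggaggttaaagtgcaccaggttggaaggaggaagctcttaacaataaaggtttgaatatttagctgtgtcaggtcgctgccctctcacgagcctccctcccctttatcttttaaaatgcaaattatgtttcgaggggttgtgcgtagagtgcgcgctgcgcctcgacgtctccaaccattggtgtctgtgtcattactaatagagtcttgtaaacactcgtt
NKX6-1, chr4:84499293-84499542, minus strand: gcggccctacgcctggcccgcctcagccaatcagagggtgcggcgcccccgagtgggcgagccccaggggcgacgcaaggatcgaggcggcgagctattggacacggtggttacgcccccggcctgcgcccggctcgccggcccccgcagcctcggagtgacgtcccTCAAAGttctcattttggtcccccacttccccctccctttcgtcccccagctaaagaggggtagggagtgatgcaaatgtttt
FGF18, chr5:171419397-171419646, plus strand: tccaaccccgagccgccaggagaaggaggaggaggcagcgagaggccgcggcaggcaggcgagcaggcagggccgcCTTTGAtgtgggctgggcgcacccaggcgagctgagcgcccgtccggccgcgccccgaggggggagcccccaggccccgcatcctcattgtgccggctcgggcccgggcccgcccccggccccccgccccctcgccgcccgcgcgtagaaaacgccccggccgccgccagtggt
SP5, a zinc finger repressor, had 3 matches, which begin 147, 109 and 83 bases before its start. Only 2 of the 10750 tested genes with a promoter in the RefSeq table had 3 or more. CDX2, NKX6-1 and FGF18 had 1 match each, 238, 83 and 174 bases before the start. The match was present in 803 promoters of tested genes (7.47%), in 20 of 206 promoters of raised genes (9.71%), in 5 of 86 of lowered genes (5.81%) and in 7 of 36 of genes raised by at least 2 on the log2 scale (19.4%). The order of raised and lowered genes turned with the longer motif CTTTGAT. It was in 130 promoters of tested genes (1.21%), 3 of raised genes (1.46%) and 3 of lowered genes (3.49%). Among genes raised by at least 2 it was in 2 (5.56%). Of the 20 genes with the highest rise, DACT1 also held a match, while GBX2, GAD1, WNT5B, EVX1, WLS, FST, RNF43, TMEM132C, EGFLAM, TTC29 and NODAL held none in this window. EVX1, RNF43, TMEM132C and TTC29 were also under 0.5 TPM at 34 h. NKD1, TNFRSF11B, WNT10B, ELMOD1 and LIX1 were among the 20 genes with the highest rise and had no entry in the table.

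Some genes went from near silence to a clear level within the 8 h. Taking under 0.5 TPM in both 34 h libraries and at least 3 TPM in both 42 h libraries, 16 genes were turned on: BAHCC1, CDX2, DKK4, ELMOD1, EVX1, FZD10, HHIPL2, HIST1H4D, LIX1, NKX6-1, RNF43, SEMA3C, SLITRK5, SP5, TMEM132C and TTC29. All but HIST1H4D, a histone gene listed at 0 in both 34 h libraries and at 4.02 and 3.36 TPM at 42 h, were called. The group holds transcription factors, membrane proteins and secreted proteins. NKX6-1, a homeodomain factor best known from the ventral neural tube and the pancreas, was at 0 and 0.13 TPM and then at 8.41 and 5.82 TPM. LIX1 went from 0.171 and 0.161 TPM to 6.34 and 5.73 TPM. ELMOD1, a regulator of small ARF GTPases, went from 0.243 and 0.258 TPM to 9.86 and 10.9 TPM. TMEM132C, a membrane protein, went from 0.224 and 0.24 TPM to 11.6 and 9.69 TPM. SEMA3C, a secreted semaphorin, went from 0.228 and 0.203 TPM to 4.94 and 5.18 TPM. The rule for this group fixes that the times lie apart, so these values are a description.

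The reverse, at least 3 TPM in both 34 h libraries and under 0.5 TPM in both 42 h libraries, held for 4 entries, all with clone names or names of pseudogenes: AC105052.3, AL034430.2, AL645949.1 and SNRPGP15. AL034430.2 and AL645949.1 were called and the other 2 were not. AL034430.2 was at 43.4 and 57.7 TPM at 34 h and listed at 0 in both 42 h libraries, then at 20.8 and 36.7 TPM at 50 h and listed at 0 in both 72 h libraries. AL645949.1 was at 4.71 and 4.96 TPM at 34 h and listed at 0 at 42 h, and its call was lost without either 34 h library and without 42 h replicate 2 (limma adjusted p from 0.00333 to 0.0732 over the alternatives). A listed 0 can be a failed estimate in a table without counts.

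Several factors of the posterior body rose. Of 8 caudal progenitor factors on the list, 6 passed the filter on low values and were raised (TBXT, CDX1, CDX2, NKX1-2, EVX1 and SP8), and CDX4 and HES7 were under 1 TPM in all 8 libraries and were not tested. CDX1, CDX2 and EVX1 passed the filter only through libraries taken after WNT3A. EVX1, a homeodomain factor of the posterior streak, was listed at 0 in both 34 h libraries and at 12.9 and 10.6 TPM at 42 h. SP8, a relative of SP5 of the tail bud and brain, went from 1.75 and 2.12 TPM to 14 and 14.9 TPM (log2 change 2.40 ± 0.17, limma adjusted p = 0.000346). SP6, a member of the same family named here after its values were seen, went from 2.83 and 2.44 TPM to 17.5 and 11.6 TPM. Of 7 tested genes of mesoderm and endoderm, LHX1 rose and 6 did not pass, and 11 more were too low to test. At an unadjusted p under 0.05 by limma, 3 of the 7 were higher and 1 lower. MIXL1 was at 0.115 and 0.108 TPM and then at 1.66 and 1.32 TPM, and EOMES at 0.0551 and 0.104 TPM and then at 1.33 and 1.21 TPM. Both were called without a filter on low values and without a variance trend (limma adjusted p from 0.00699 to 0.238 and from 0.00639 to 0.311 over the alternatives). SOX17 and MSGN1, defining genes of endoderm and paraxial mesoderm, were listed at 0 in all 4 libraries. The summed TPM of this list was 26.0 and 26.7 at 34 h and 26.7 and 25.5 at 42 h. LHX1 itself was at 0.448 and 0.174 TPM and then at 3.24 and 2.31 TPM, and its call was lost without any 1 of the 4 libraries (limma adjusted p from 0.00859 to 0.167 over the alternatives). In bulk samples, a gene carried by fewer cells and a gene with less RNA per cell cannot be told apart.

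Some hindbrain genes rose. Of 9 tested hindbrain and Iroquois genes, 4 rose (GBX2, MEIS2, IRX1 and IRX3) and none fell by limma (0 also at an unadjusted p under 0.05). The shares over all tested genes were 1.78% raised and 0.792% lowered. MEIS2, a partner of HOX proteins, went from 2.11 and 3.25 TPM to 18.7 and 14.7 TPM (log2 change 2.27 ± 0.18, limma adjusted p = 0.000546), and MEIS1 and MEIS3 did not pass. IRX1 went from 15.1 and 11.8 TPM to 34.2 and 29.4 TPM and IRX3 from 3.46 and 2.61 TPM to 8.92 and 8.64 TPM, while IRX2 was at 84.3 and 83.9 TPM before and 89.8 and 83.4 TPM after. FOXB1, a forkhead factor of the early neural tube named after its values were seen, was already at 13.9 and 14.4 TPM and rose to 71.8 and 61.3 TPM (2.15 ± 0.12, limma adjusted p = 0.0001). None of 5 tested midbrain and isthmus genes was called by limma at an adjusted p under 0.05, and 1 was higher at an unadjusted p under 0.05. PAX2 was at 4.79 TPM in one 42 h library and 0.958 TPM in the other. FGF8, the signal of the isthmus, was at 7.25 and 7.89 TPM and then at 9.29 and 7.79 TPM. The calls of IRX1 and IRX3 were lost without 34 h replicate 2 and without 42 h replicate 1, and that of IRX3 also without 42 h replicate 2 (limma adjusted p from 0.00415 to 0.0743 and from 0.00746 to 0.0732 over the alternatives).

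Forebrain genes moved unevenly. OTX2, which marks forebrain and midbrain, fell from 168 and 151 TPM to 40.3 and 48.8 TPM (log2 change -1.82 ± 0.20, limma adjusted p = 0.00256). HESX1 was at 9.46 and 8.66 TPM and then at 2.44 and 2.39 TPM, and FEZF1 at 53.3 and 47.6 TPM and then at 15.7 and 23.8 TPM, and neither passed. FEZF1 was called with the replicate block (limma adjusted p = 0.0243, up to 0.305 over the alternatives), and HESX1 in the fit of the 4 libraries alone (0.0353, from 0.00489 to 0.24 over the alternatives). LHX2, a factor of the eye field and cortex, rose from 0.785 and 0.176 TPM to 3.50 and 2.82 TPM, and its call was lost without 34 h replicate 2 and without either 42 h library (limma adjusted p from 0.0194 to 0.16 over the alternatives). FOXJ1, the master factor of motile cilia, fell from 16 and 13.6 TPM to 4.79 and 4.21 TPM (log2 change -1.52 ± 0.18, limma adjusted p = 0.00375).

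Secreted signals outside the WNT family were among the strongest risers. FST, follistatin, which binds and blocks activins, went from 13.4 and 14.8 TPM to 181 and 175 TPM (log2 change 3.57 ± 0.08, limma adjusted p = 1.2e-06). NODAL, a ligand of the receptors that SB blocks, went from 0.572 and 0.449 TPM to 8.32 and 7.84 TPM (2.59 ± 0.25, limma adjusted p = 0.00124). Both rises were far outside the spread of the replicates. Of 16 tested genes of the NODAL and activin pathway, 5 rose (FST, NODAL, INHBB, SMAD2 and SMAD3) and none fell at an adjusted p under 0.05 by limma, with 6 higher and 3 lower at an unadjusted p under 0.05. Over all tested genes 1.78% rose, 0.792% fell and 13.9% were past an unadjusted p of 0.05. TDGF1, the NODAL co-receptor CRIPTO, was at 743 and 785 TPM and then at 366 and 352 TPM and did not pass. It was called with the replicate block (limma adjusted p = 0.0349), in the fit of the 4 libraries alone (0.013) and without either 72 h library, and its adjusted p ran from 0.00518 to 0.292 over the alternatives. LEFTY1 and LEFTY2, feedback targets of NODAL signalling, were listed at 0 in both 42 h libraries. The calls of INHBB and SMAD2 were lost without any 1 of the 4 libraries and that of SMAD3 without 34 h replicate 2 and without either 42 h library (limma adjusted p from 0.0209 to 0.217, 0.0131 to 0.131 and 0.0254 to 0.22 over the alternatives; 0.0576 for INHBB with the replicate block).

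FGF18, a ligand of the FGF8 subfamily, went from 0.664 and 0.434 TPM to 8.53 and 5.72 TPM (log2 change 2.37 ± 0.23, limma adjusted p = 0.00143). FGF19, an early neural and hindbrain FGF, went from 4 and 2.87 TPM to 11.6 and 10.3 TPM. The other 13 tested FGF ligands and receptors did not pass (13.3% of the list called, against 2.58% of all tested genes). Transcripts that report ERK activity did not share a direction: of 15 tested, DUSP5 rose, SPRY1 and PHLDA1 fell and 12 did not pass, with DUSP6, a direct readout of ERK, at 17.1 and 18.3 TPM and then at 14.3 and 20.9 TPM. Of this list 20% were called. The call of FGF19 was lost without 34 h replicate 2 and without either 42 h library, and those of DUSP5, SPRY1 and PHLDA1 without any 1 of the 4 (limma adjusted p from 0.00716 to 0.0747, 0.00732 to 0.0956, 0.033 to 0.262 and 0.0085 to 0.114 over the alternatives).

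In the BMP pathway, 2 of 17 tested genes rose and none fell at an adjusted p under 0.05 by limma, with 5 higher and 3 lower at an unadjusted p under 0.05. For this list and the Notch and hedgehog lists below, the shares over all tested genes were 2.58% called and 13.9% past an unadjusted p of 0.05. ID2, a target of BMP and other signals that blocks helix-loop-helix factors, rose from 24.3 and 29.3 TPM to 59.3 and 62.3 TPM (log2 change 1.16 ± 0.11, limma adjusted p = 0.00143). MSX1, a homeobox gene of the dorsal neural tube, was listed at 0 in both 34 h libraries and at 1.98 and 2.12 TPM at 42 h. It passed the filter on low values only through libraries taken after WNT3A, and its call was lost without 42 h replicate 2 (limma adjusted p from 0.00111 to 0.0555 over the alternatives). ID1 was at 5.90 and 5.19 TPM and then at 7.90 and 5.65 TPM, ID4 at 2.29 and 2.71 TPM and then at 0.917 and 0.403 TPM, and neither passed. Of 20 tested Notch genes, HES3, an isthmus repressor, rose from 117 and 81.8 TPM to 318 and 263 TPM. LFNG, a glycosyltransferase that tunes Notch receptors, fell from 44.9 and 41.3 TPM to 20 and 17.5 TPM (-1.16 ± 0.13, limma adjusted p = 0.00322), and 18 did not pass. The call of HES3 was lost without 42 h replicate 1 (limma adjusted p from 0.00117 to 0.0587 over the alternatives). Of 8 hedgehog genes, PTCH1, the receptor and a target of the pathway, was raised and 7 did not pass. It went from 19.3 and 13.8 TPM to 37.0 and 39.1 TPM, and its call was lost without 34 h replicate 2 and without either 42 h library (limma adjusted p from 0.0119 to 0.16 over the alternatives).

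Among the genes that handle retinoic acid, CYP26A1, the enzyme that breaks down retinoic acid, fell from 21.7 and 23.5 TPM to 4.26 and 6.96 TPM (-1.86 ± 0.31, limma adjusted p = 0.0185). Called genes are chosen for a change that is large against the spread, so libraries that lie apart are a description. The libraries of the 2 times did not overlap, and the call was lost without either 34 h library and without 42 h replicate 1 (limma adjusted p from 0.00475 to 0.139 over the alternatives).

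A few receptors and ligands used by migrating and wiring cells rose, and others fell. Of 32 tested guidance genes, 5 rose (EPHA2, EPHB3, EFNB2, NTN1 and SEMA3C) and none fell at an adjusted p under 0.05 by limma. At an unadjusted p under 0.05, 13 were higher and 4 lower, where 13.9% of all tested genes were past it. The list does not hold every member of these families. The semaphorin SEMA6D, given below, and the Eph receptor EPHB6, named after its values were seen, were outside it. Both were called as lowered (log2 changes of -1.39 and -0.71). NTN1, netrin-1, a secreted guidance cue, went from 3.63 and 3.06 TPM to 14.9 and 13.1 TPM (log2 change 1.79 ± 0.19, limma adjusted p = 0.00218). EPHB3, an Eph receptor, went from 2.88 and 2.68 TPM to 16.6 and 10.4 TPM, and its call was lost without either 34 h library and without 42 h replicate 1 (limma adjusted p from 0.00611 to 0.138 over the alternatives). The calls of EPHA2 and EFNB2 were lost without either 34 h library and without 42 h replicate 2, and that of EPHA2 also without 42 h replicate 1 (limma adjusted p from 0.0151 to 0.162 and from 0.00402 to 0.07 over the alternatives). TNFRSF11B, osteoprotegerin, a secreted decoy receptor, went from 0.329 and 1.20 TPM to 18 and 23.7 TPM (3.66 ± 0.25, limma adjusted p = 0.000279). EGFLAM, pikachurin, a matrix protein of synapses, went from 0.532 and 0.336 TPM to 13.2 and 7.73 TPM (2.96 ± 0.24, limma adjusted p = 0.000575). After their values were seen, GDNF, a neurotrophic factor, and RET, its signalling receptor, were found among the raised genes. GDNF was at 0.0894 and 0.0371 TPM and then at 5.58 and 1.85 TPM, and RET at 11.3 and 9.39 TPM and then at 19.4 and 19.9 TPM. Neither call held without every library: GDNF's was lost without either 34 h library and without 42 h replicate 1, and RET's without 34 h replicate 2 and without either 42 h library (limma adjusted p from 0.0104 to 0.191 and from 0.00831 to 0.104 over the alternatives).

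A few genes of adhesion and the cytoskeleton changed. Of 22 cadherins and genes of the epithelial state, CDH2 and ZEB2 rose, KRT18 fell and 19 did not pass. ZEB2, a repressor of epithelial genes that also acts in neural induction, rose from 4.92 and 3.74 TPM to 32.9 and 28.8 TPM (log2 change 2.58 ± 0.20, limma adjusted p = 0.000489). CDH2, N-cadherin, rose from 15.2 and 14.6 TPM to 31.6 and 37.6 TPM (1.16 ± 0.12, limma adjusted p = 0.00157). KRT18, a keratin of simple epithelia, went from 272 and 267 TPM to 201 and 179 TPM, and its call was lost without any 1 of the 4 libraries (limma adjusted p from 0.0286 to 0.25 over the alternatives). The most abundant raised gene was TUBB2B, a beta-tubulin of neural cells, at 463 and 420 TPM and then at 920 and 792 TPM. Its neighbour in sequence TUBB2A went from 120 and 103 TPM to 484 and 457 TPM (2.07 ± 0.14, limma adjusted p = 0.000291). These 2 genes are near-identical in their coding sequence, so the split of reads between them is uncertain. GJA1, the gap junction protein connexin 43, rose from 478 and 492 TPM to 814 and 838 TPM (0.77 ± 0.08, limma adjusted p = 0.0024). Of 22 matrix and integrin genes, COL2A1 rose, ITGA6 fell and 20 did not pass. The call of COL2A1 was lost without 34 h replicate 2 and without 42 h replicate 1 and that of ITGA6 without any 1 of the 4 libraries (limma adjusted p from 0.00451 to 0.0802 and from 0.0319 to 0.218 over the alternatives; 0.058 for ITGA6 with the replicate block).

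Several genes of lipid synthesis rose, while glycolysis genes moved in both directions. Of 20 tested cholesterol and fatty acid synthesis genes, 5 rose (HMGCS1, DHCR7, IDI1, INSIG1 and SCD), and none fell at an adjusted p under 0.05 by limma. At an unadjusted p under 0.05, which 13.9% of all tested genes were past, 15 were higher and 0 lower, and the list's median log2 change was 0.40 against 0.01 for all tested genes. HMGCS1, an early enzyme of the mevalonate pathway, rose from 248 and 227 TPM to 386 and 383 TPM (0.70 ± 0.08, limma adjusted p = 0.0035). The calls of DHCR7, IDI1, INSIG1 and SCD were lost without any 1 of the 4 libraries (limma adjusted p from 0.0138 to 0.26, 0.0361 to 0.217, 0.0282 to 0.26 and 0.0164 to 0.209 over the alternatives; 0.0573 for IDI1 with the replicate block). SLC2A3, a high-affinity glucose transporter, rose from 118 and 134 TPM to 324 and 362 TPM (1.44 ± 0.11, limma adjusted p = 0.00048). SLC2A1, the basal glucose transporter, went from 120 and 88.6 TPM to 245 and 199 TPM, while PFKP, a phosphofructokinase, went from 113 and 112 TPM to 67.4 and 72.8 TPM. The other 17 of 20 glycolysis and hypoxia genes did not pass. The median log2 change of that list was -0.16, and at an unadjusted p under 0.05 by limma 3 were higher and 7 lower. The calls of SLC2A1 and PFKP were lost without any 1 of the 4 libraries (limma adjusted p from 0.0195 to 0.294 and from 0.00671 to 0.085 over the alternatives).

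**Figure D3:**
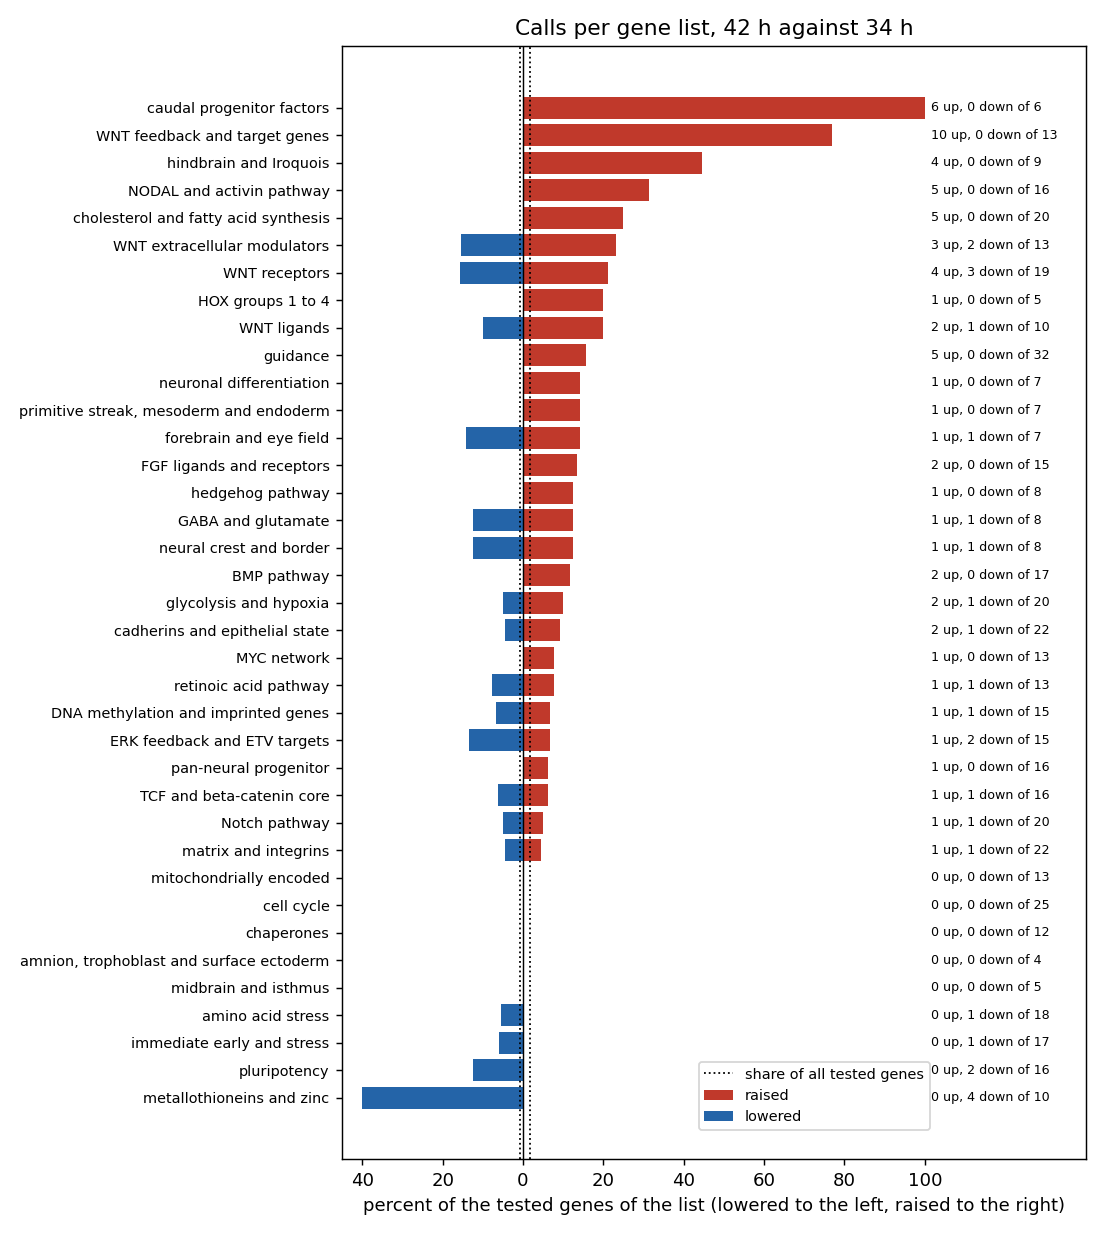
Percent of the tested genes of each gene list that rose (red, to the right) or fell (blue, to the left) at 42 h against 34 h, with the number of genes that passed the filter on low values at the right edge and dotted lines at the shares over all tested genes (1.78% raised, 0.792% lowered). Among genes that passed the filter, 6 of 6 caudal progenitor factors (8 on the list) and 10 of 13 WNT feedback and target genes are shown as raised, and 4 of 10 metallothionein and zinc genes as lowered.

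Several metallothioneins fell. These small proteins bind zinc and other metals, and their genes respond to metal and oxidative stress. MT1H went from 37.8 and 51.1 TPM to 6 and 8.09 TPM (log2 change -2.50 ± 0.20, limma adjusted p = 0.000489). MT1G went from 70.4 and 58.8 TPM to 18.1 and 17.9 TPM, and MT2A, the most abundant, from 220 and 201 TPM to 98.8 and 92.6 TPM. MT1F went from 51.3 and 42.5 TPM to 25.8 and 22.0 TPM. Of 10 tested metallothionein and zinc genes, these 4 fell and 6 did not pass, and at an unadjusted p under 0.05 by limma, which 13.9% of all tested genes were past, 7 were lower and 1 higher. MT1E, at 10.8 and 14 TPM and then 2.92 and 5.23 TPM, and MT1X, at 77.9 and 71.2 TPM and then 48.1 and 38.3 TPM, were lower in both 42 h libraries and were not called, though MT1E was called with the replicate block (limma adjusted p = 0.0184, from 0.0184 to 0.306 over the alternatives). SLC30A1, a zinc exporter induced by the same factor, was at 7.68 and 7.64 TPM and then at 4.87 and 4.75 TPM and did not pass. The summed TPM of the list went from 523 and 494 to 255 and 249. The genes are close copies of one another, so the split of reads between them is uncertain, and the call of MT1F was lost without any 1 of the 4 libraries (limma adjusted p from 0.0171 to 0.189 over the alternatives).

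HMOX1 and HSPB8, a pair of further stress genes, fell, while most genes of the other stress lists were not called. Since 2.58% of all tested genes were called, few calls in lists this short are near that share. HMOX1, heme oxygenase 1, an enzyme induced by oxidants and heme, fell from 56.5 and 53.3 TPM to 16.6 and 15.4 TPM (log2 change -1.72 ± 0.15, limma adjusted p = 0.000802). HSPB8, a small heat shock protein, fell from 17.7 and 15.8 TPM to 5.15 and 3.77 TPM, and its call was lost without 34 h replicate 1 (limma adjusted p from 0.0039 to 0.0565 over the alternatives). None of 12 chaperone genes was called by limma, with log2 changes from -0.19 to 0.32 and 2 genes past an unadjusted p of 0.05, 1 in either direction. Of 18 genes of the amino acid stress response, DDIT4 fell and 17 did not pass. Of 17 immediate early and stress genes, GADD45G fell and 16 did not pass. GADD45G, a growth arrest gene, went from 20.8 and 23.7 TPM to 2.37 and 2.25 TPM (-2.81 ± 0.25, limma adjusted p = 0.000974), while GADD45B was at 2.11 and 2.65 TPM and then at 6.36 and 5.24 TPM and did not pass. The call of DDIT4 was lost without 34 h replicate 2 and without either 42 h library (limma adjusted p from 0.0118 to 0.155 over the alternatives).

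The lowered genes also included NPTX1, GPR176, PRDM14 and MFGE8. NPTX1, a secreted protein of early neural cells, fell from 215 and 170 TPM to 40 and 33.4 TPM (log2 change -2.36 ± 0.21, limma adjusted p = 0.000833). GPR176, an orphan receptor, fell from 128 and 114 TPM to 47.0 and 50.1 TPM (-1.29 ± 0.12, limma adjusted p = 0.00131). PRDM14, a pluripotency factor, fell from 23.7 and 20.4 TPM to 7.28 and 8.56 TPM (-1.37 ± 0.16, limma adjusted p = 0.00369). MFGE8, a secreted protein that marks dying cells for uptake, was the most abundant lowered gene, at 709 and 762 TPM and then at 471 and 430 TPM (-0.71 ± 0.08, limma adjusted p = 0.00298). FOXO1, a forkhead factor restrained by insulin signalling and named after its values were seen, fell from 21.0 and 18.7 TPM to 7.62 and 8.06 TPM (-1.24 ± 0.14, limma adjusted p = 0.0035). DNMT3B, the DNA methyltransferase of pluripotent cells, went from 558 and 452 TPM to 356 and 332 TPM. UGP2, an enzyme of UDP-glucose synthesis, went from 563 and 584 TPM to 319 and 322 TPM, and TERF1, a telomere protein, from 236 and 226 TPM to 111 and 117 TPM. The calls of UGP2, TERF1 and PKDCC, a secreted kinase at 554 and 669 TPM and then 390 and 375 TPM, were lost without any 1 of the 4 libraries, and that of DNMT3B without 34 h replicate 1 and without either 42 h library (limma adjusted p from 0.00205 to 0.237, 0.0154 to 0.213, 0.0133 to 0.224 and 0.0301 to 0.253 over the alternatives; 0.062 for TERF1 with the replicate block).

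Among the 20 deepest falls, 9 more calls depended on single libraries or on the setting. GALNT9, a glycosyltransferase, went from 36.5 and 21.5 TPM to 7.36 and 4.79 TPM, and its call was lost without 34 h replicate 1 and without 42 h replicate 2 (limma adjusted p from 0.00535 to 0.0703 over the alternatives). ABCA1, a cholesterol exporter, went from 11 and 9.09 TPM to 3.04 and 3.91 TPM, and its call was lost without either replicate 1 library (limma adjusted p from 0.00461 to 0.0693). SHISA2, an antagonist of WNT and FGF receptors, went from 14.1 and 16 TPM to 4.45 and 5.12 TPM. SEMA6D, a transmembrane semaphorin, went from 14.6 and 11.7 TPM to 4.24 and 4.55 TPM. The calls of SHISA2, SEMA6D, LAYN, ZNF488 and the read-through gene BORCS8-MEF2B were lost without any 1 of the 4 libraries (limma adjusted p from 0.00799 to 0.206, 0.0089 to 0.108, 0.014 to 0.175, 0.011 to 0.164 and 0.0285 to 0.257 over the alternatives). The 2 others were CYP26A1 and HSPB8. The pseudogene ECEL1P1, at 7.76 and 9 TPM and then 1.74 and 1.61 TPM, kept its call in every alternative but the test against a minimum change.

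Genes of the cell cycle and of the mitochondrial genome gave no call by limma at an adjusted p under 0.05. With 2.58% of all tested genes called, no call in lists this short is near the share over all genes. Over 25 cell cycle genes, which did not include CCND1, the log2 changes ran from -0.37 for CCNE1 to 0.46 for E2F1 with a median of 0.06, and 2 genes were higher and 1 lower at an unadjusted p under 0.05. Over 13 mitochondrially encoded genes they ran from -0.12 to 0.05, with 0 past an unadjusted p of 0.05. Of 13 genes of the MYC network, MYCL rose from 15.3 and 11.7 TPM to 35.2 and 31.1 TPM (log2 change 1.25 ± 0.15, limma adjusted p = 0.00416) and 12 did not pass, and its call was lost in the fit of the 4 libraries alone (limma adjusted p from 0.00187 to 0.0521 over the alternatives). PLAGL1, an imprinted zinc finger gene, rose from 1.28 and 1.05 TPM to 6.83 and 5.88 TPM (1.76 ± 0.22, limma adjusted p = 0.00446). A gene that misses the threshold is not shown to be unchanged.

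Beside the list of mesoderm and endoderm given above, the lists of other cell types held 0, 2 and 1 called genes. Of 4 tested amnion, trophoblast and surface ectoderm genes none was called by limma (1 was lower at an unadjusted p under 0.05), and the list's summed TPM was 49.7 and 56.8 at 34 h and 40.9 and 36.8 at 42 h, most of it from KRT7. GATA3 and CGA, defining genes of trophoblast, were at 0.135 TPM or less at 34 h and listed at 0 at 42 h. Of 8 neural crest and border genes, SOX9 rose from 15 and 13.5 TPM to 27.9 and 27.5 TPM, FOXD3 fell from 4.65 and 4.48 TPM to 0.688 and 0.852 TPM and 6 did not pass (25% called, against 2.58% of all tested genes). The call of SOX9 was lost without 34 h replicate 2 and that of FOXD3 without any 1 of the 4 libraries (limma adjusted p from 0.00289 to 0.0524 and from 0.00126 to 0.0988 over the alternatives). SOX10 was at 3.13 and 2.18 TPM and then at 3.66 and 2.32 TPM. Of 7 tested neuronal genes, STMN2 went from 0.32 and 0.256 TPM to 1.47 and 1.56 TPM, with its call lost without any 1 of the 4 libraries (limma adjusted p from 0.00829 to 0.207 over the alternatives; 0.0604 with the replicate block), and 6 did not pass (14.3% called). At an unadjusted p under 0.05 by limma, 3 of the 7 were higher and 0 lower. The summed TPM of the neuronal list was 329 and 273 at 34 h and 367 and 308 at 42 h, while NEUROD1 and NEUROD4, factors of new neurons, were listed at 0 in all 4 libraries. The part of other cells in the results above was not tested.

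GAD1, the enzyme that makes the transmitter GABA, was the third-highest riser, and GAD2 and SLC32A1, which act with it, stayed at or near 0. It went from 1.49 and 0.083 TPM to 48.0 and 43.5 TPM (log2 change 4.83 ± 0.38, limma adjusted p = 0.000489). GAD2, its partner enzyme, was listed at 0 in all 4 libraries, and SLC32A1, which loads GABA into vesicles, was at most 0.274 TPM at 34 h and 0.243 TPM at 42 h. Of 8 tested GABA and glutamate genes, GAD1 rose, 1 fell and 6 did not pass (25% called, against 2.58% of all tested genes). At an unadjusted p under 0.05 by limma, 1 of the 8 was higher and 2 lower.

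On the chromosome, GAD1 lies near SP5. Positions here are those of GENCODE release 29 on GRCh38. SP5 spans chr2:170715351-170718078 and GAD1 spans chr2:170813213-170861151, both on the plus strand, and their starts are 97.9 kb apart. ERICH2, named like FBXL14 after its values were seen, lies between them and also rose, from 1.52 and 2.31 TPM to 7.89 and 6.92 TPM, and its call was lost without 42 h replicate 1 (limma adjusted p from 0.00535 to 0.06 over the alternatives). Beyond GAD1 the next tested protein-coding genes, GORASP2 and TLK1, were not called, with log2 changes of 0.12 and -0.03. Inside WNT5B on chromosome 12 lies FBXL14, a ubiquitin ligase subunit on the opposite strand, which went from 5.49 and 4.68 TPM to 25.6 and 22.1 TPM (log2 change 2.03 ± 0.22, limma adjusted p = 0.00198). Whether the counting used strand is not given in the sources used here, so reads of WNT5B and FBXL14 may not be separated. The lowered metallothionein genes share 1 stretch of chromosome 16. Of 14760 pairs of adjacent tested genes, 13 had both members raised and 5 had both members lowered.

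**Figure D4:**
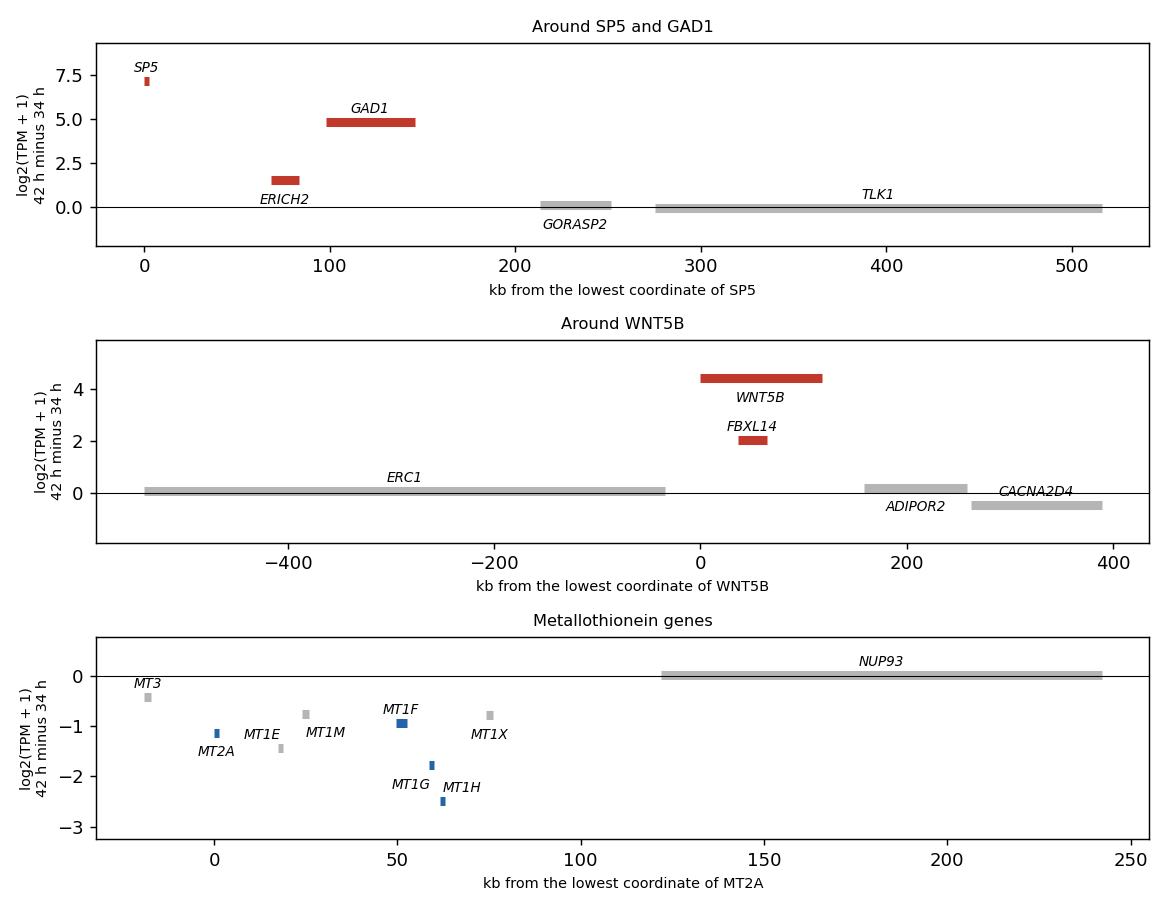
Log2(TPM + 1) difference, 42 h minus 34 h (vertical), of every tested protein-coding gene in 3 stretches of the genome against its distance in kb (horizontal) from the lowest coordinate of a named gene, with bars as long as the genes, red for raised, blue for lowered and grey for not called. SP5, ERICH2 and GAD1 are red and GORASP2 and TLK1 are grey, and the metallothionein bars all lie below 0 beside NUP93, which lies near it.

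The later course of the 42 h genes was read from 72 h against 50 h, a comparison that shares no library with this one. Both came from 1 fit over the 8 libraries and share the variance estimate of each gene, so a gene with a low estimate is more readily called in both. Over all tested genes 436 (2.92%) were raised and 657 (4.41%) lowered from 50 h to 72 h. Of the 266 genes raised at 42 h, 59 (22.2%) were lowered and 32 (12%) raised in the later interval, with a median log2 change of -0.15 against 0.01 for all genes. Of the 118 genes lowered at 42 h, 38 (32.2%) were lowered in the later interval too and 7 (5.93%) were raised, with a median of -0.40. With the 34 h and 42 h libraries and the 50 h and 72 h libraries fitted apart, 25 of 120 raised genes (20.8%) and 13 of 51 lowered genes (25.5%) were lowered from 50 h to 72 h, against 1.46% of all tested genes. In the same fits 6 of the 120 (5%) and 3 of the 51 (5.88%) were raised, against 0.999%. Genes that vary little can still be called more readily in both fits. These counts moved with the libraries used: leaving out 1 of the 8 libraries gave between 25 and 42 genes raised and then lowered, and between 2 and 8 lowered and then raised.

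Named genes show both courses. WNT10B stood at 14.1 and 11.2 TPM at 50 h and had dropped by 72 h to 2.13 and 3.10 TPM (a log2 change of -1.92, limma adjusted p = 0.000954). WNT5B stood at 49.6 and 43.9 TPM and then at 12.7 and 16.3 TPM (-1.63, limma adjusted p = 0.00314). EVX1 stood at 7.88 and 6.06 TPM at 50 h and was listed at 0 in both 72 h libraries. NODAL, at 2.10 and 1.16 TPM at 50 h and then 0.417 and 0.361 TPM, and DKK4, at 0.412 and 0.399 TPM at 50 h and listed at 0 at 72 h, had their highest level of the 4 time points at 42 h, and neither passed the test from 50 h to 72 h (limma adjusted p of 0.068 and 0.289). FGF18, FGF19, NKX1-2 and HMGCS1 were lowered in that interval (log2 changes of -1.54, -1.42, -2.60 and -0.97 by limma). FST rose on, to 391 and 399 TPM at 50 h and then to 933 and 877 TPM (1.19, limma adjusted p = 0.000236). TNFRSF19, a receptor and WNT target that stood at 0.758 and 0.983 TPM at 34 h and at 6.31 and 5.42 TPM at 42 h, reached 30.1 and 29 TPM at 72 h (1.88, limma adjusted p = 0.000534). MEIS2, ROR2, ZEB2, LIX1, CDH2, ID2 and IRX1 rose on as well, with log2 changes of 1.03, 0.91, 0.92, 0.78, 0.78, 0.77 and 0.93 by limma. Among the 7 lowered genes that turned up again were ABCA1, CYP26A1, LGR4, MT1F, MT1G and PRDM14. CYP26A1 rose most of these, from 2.92 and 6.67 TPM at 50 h to 44.9 and 43.3 TPM at 72 h (3.04, limma adjusted p = 0.00113). The 42 h calls of FGF19, IRX1, ABCA1, CYP26A1, LGR4 and MT1F were lost without single libraries, as given with each gene above.

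**Figure D5:**
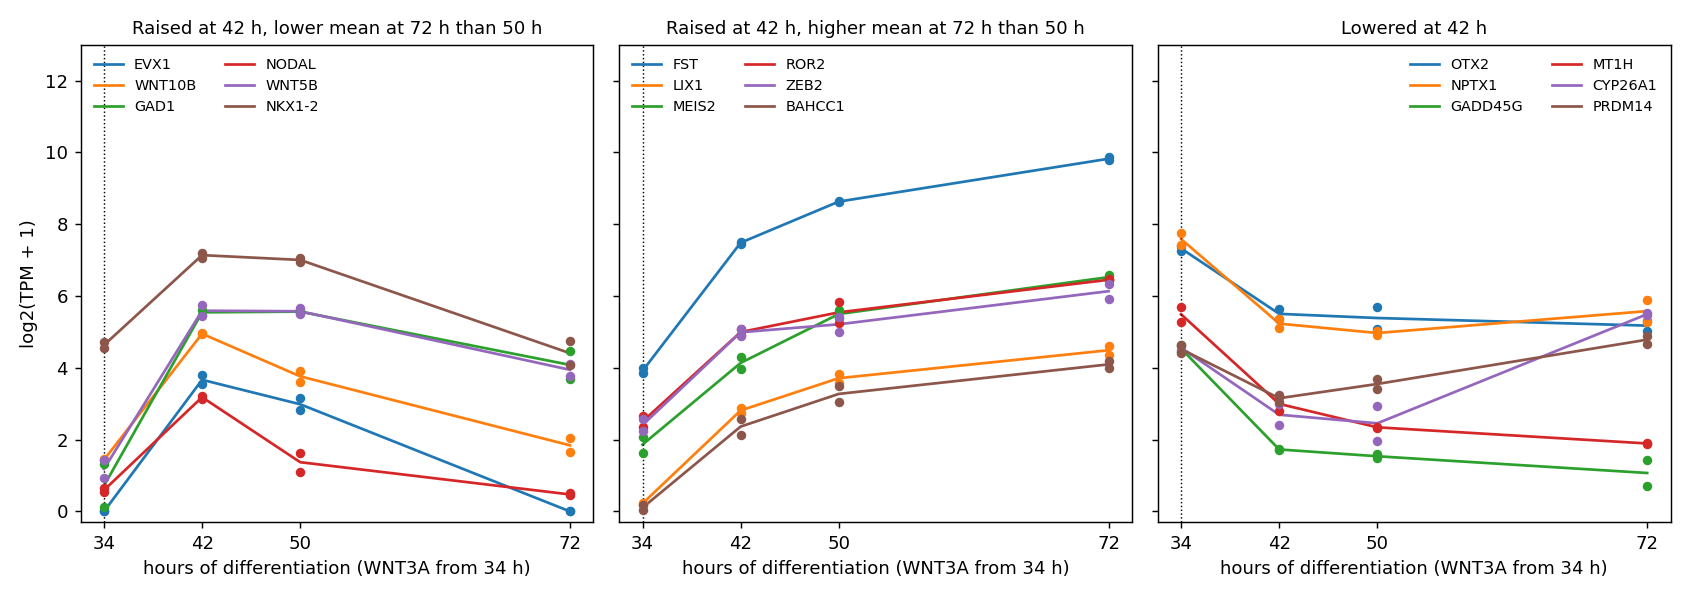
Log2(TPM + 1) in each of the 8 libraries (points) with the mean per time point (lines) against hours of differentiation, the dotted line marking the addition of WNT3A, for genes raised at 42 h with a lower mean at 72 h than at 50 h (left), genes raised at 42 h with a higher mean at 72 h than at 50 h (centre) and genes lowered at 42 h (right). EVX1 and NODAL return to their 34 h level by 72 h, FST climbs through all 4 times, and CYP26A1 and PRDM14 rise again by 72 h.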

How the data were processed

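The authors deposited 1 table of TPM values with 8 columns, 2 libraries at each of 4 time points, and TPM per column summed to 1000000. Per the submitters' processing notes Salmon 1.9.0 and the build GRCh38 were used. The annotation release and the strand setting are not given in the sources used here. Rows were summed by gene symbol (1034 symbols had more than 1 row). Positions and gene types came from GENCODE release 29, which matched 35003 rows by identifier and left 2948 unmatched. A gene entered the test where 2 or more of the 8 columns held at least 1 TPM. The scale was log2(TPM + 1), a pseudocount of 1, and the test limma 3.58.1 (R 4.3.3, variance trend, 1 mean per time point over all 8 libraries) and Benjamini-Hochberg adjustment over all 14908 genes at 0.05. With 2 libraries against 2, an exact permutation test of a single gene cannot go below p = 0.333. Nothing says that the replicates came from separate cultures beyond the wording of the design text, so p-values measure the spread between these libraries. The labels tie replicate number to batch. The replicate differences of the 34 h and 42 h libraries had a correlation of 0.0949, and blocking on replicate number is one of the alternatives.

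The genes and the 37 gene lists were chosen with earlier results of these data known. Named genes are any on a list, the 20 called genes that rose most and the 20 that fell most (mean at the higher time 5 TPM or more, log2 change 1 or more in both replicate numbers), genes turned on or off, the 5 most abundant called in either direction and the 5 whose replicates disagreed most. Genes outside these are said to have been chosen after their values were seen. In simulated data with 14908 genes, 100 were changed at each size. There limma recovered 54% of log2 changes of 1 and 94% of log2 changes of 2, and called 7 unchanged genes. These shares cannot be carried over to genes of low level, including those near silence at 34 h. Among tested genes under 5 TPM on average, 197 of 273 with a log2 difference of at least 1 were not called. Alternatives were another pseudocount and filter, TMM scaling (trimmed means of log ratios) and quantile scaling, no variance trend, the 4 libraries alone, a test against a minimum change, rows left unsummed and leaving out each library, and one added after the data were seen fitted the pairs of times apart. Promoters came from RefSeq tables. Results of some genes on the lists are not reported here.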

Additional observations from a re-analysis of the deposited data

How the results depend on the processing

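In place of the 384 genes that limma called, the fit of the 34 h and 42 h libraries alone called 171 (120 raised, 51 lowered; 159 shared with the 384), limma's treat, which requires a log2 change above 1, called 41 (37 raised, 4 lowered), and the fit without a filter on low values called 256 (70 lowered in place of 118; 229 shared with the 384). Leaving out 1 of the 8 libraries gave 161 to 372 changed genes, 134 to 256 raised and 27 to 116 lowered. The 59 genes raised and then lowered from 50 h to 72 h became 2 in treat and 25 to 42 with 1 library left out. The 7 genes lowered and then raised became 4 without a filter, 4 without a variance trend, 0 in treat and 2 to 8 with 1 library left out. With the 2 pairs of times fitted apart, an alternative added after the data were seen, these 59 and 7 became 25 and 3. The cause of these differences was not tested. The other 8 settings gave 351 to 406 changed genes. Since TPM keeps no depth, counting error cannot be given.

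With the replicate number as a block, pairing libraries by batch label, limma called 403 genes, 277 raised and 126 lowered, of which 354 were shared with the 384. The block ended the calls of IDI1, INHBB, ITGA6, LGR4, SFRP2, STMN2 and TERF1 (adjusted p from 0.0573 to 0.062) and of no other named gene. It added the calls of FEZF1 (0.0243), MT1E (0.0184) and TDGF1 (0.0349). Other settings added calls of named genes that had not passed: GADD45B (4 settings, limma adjusted p from 0.0453 to 0.237 over the alternatives), TCF7L1 with quantile scaling and with a mean of at least 5 TPM (0.0399 to 0.347), PAX2 with a pseudocount of 0.1 and without 42 h replicate 2 (0.0294 to 0.423), ID4 without a variance trend (0.0295 to 0.386), and in the 4 libraries alone HIST1H4D (0.0252 to 0.526), AC105052.3 (0.00333 to 0.39) and SNRPGP15 (0.00338 to 0.457). Of 126 called genes named, 66 kept the call in every alternative except treat.

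Among the 5 entries whose replicates disagreed most, the direction turned when a library was left out. AL049629.2 was at 1.13 on the log2 scale without 34 h replicate 1 and at 0.34 without 42 h replicate 1. Without 34 h replicate 2 the values were 1.45 for AC006449.4, -1.37 for AC120114.4, -1.13 for AL132780.3 and -1.09 for AL162151.2. Without 42 h replicate 2 they were 1.23 for AC006449.4, -1.54 for AC120114.4 and -1.45 for AL132780.3. Over the 4 libraries left out, the log2 changes ran from -1.9 for AC006449.4 and -2.7 for AL049629.2 up to 1.87 for AC120114.4, 2.09 for AL132780.3 and 8.83 for AL162151.2. Among genes near 0 that were not called, the sign also turned for DUSP6 (-0.29 to 0.23), IRX2 (-0.01 to 0.09), MEIS3 (-0.03 to 0.18), NUP93 (-0.05 to 0.1), SOX10 (-0.13 to 0.36) and TLK1 (-0.11 to 0.05).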

Other observations

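The tested entries whose 2 replicates disagreed most between 34 h and 42 h all had clone names, and none was called by limma. AL162151.2 was at 967 TPM in 34 h replicate 1, listed at 0 in 34 h replicate 2, and at 602 and 344 TPM at 42 h. AC120114.4 was at 7.43 TPM and listed at 0 at 34 h and the reverse at 42 h, listed at 0 and at 9.65 TPM. AL132780.3 was at 6.42 TPM and listed at 0, then listed at 0 and at 10.6 TPM. AC006449.4 was listed at 0 and at 9.24 TPM, then at 6.48 TPM and listed at 0. AL049629.2 was at 13.2 TPM and listed at 0, then listed at 0 and at 3.76 TPM.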
